A study of Mus musculus with 4 samples.

Results

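Signals of 10 genes that encode subunits of Polycomb repressive complex 1 (PRC1) were followed on 4 Affymetrix mouse genome arrays of embryonic stem (ES) cells. The genes were 4 of the Cbx family (Cbx2, Cbx6, Cbx7, Cbx8), 3 of the Phc family (Phc1, Phc2, Phc3) and 3 accessory subunits (Yaf2, Scmh1, L3mbtl2), out of 18193 genes named on the array. Every probe set annotated to exactly 1 of these symbols was used, 20 of 45101 probe sets in all. Total RNA came from ES cells labelled constitutive Ring1B KO, from their control labelled wild-type, from ES cells labelled conditional Ring1A/B-dKO at day 4, and from their control, also labelled wild-type. The design text says that double KO cells cannot be kept in culture as constitutive knockouts and were therefore made conditional with OHT, a tamoxifen derivative commonly used to switch on inducible recombinases. Whether the wild-type control of the double KO carried a floxed allele, a Cre or OHT is not stated in the sources used here. Each of the 4 groups was 1 array, so no difference below has a replicate check, p-values are not given, and precision is limited by how few arrays there are.

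Canonical PRC1 is built on a Ring1 or Rnf2 RING-finger protein paired with a Pcgf protein, and it mono-ubiquitylates histone H2A. Its Cbx subunit carries a chromodomain that reads the histone mark made by Polycomb repressive complex 2 (PRC2), and its Phc subunit carries a SAM domain through which complexes join into larger assemblies. Variant PRC1 complexes hold Rybp or the related Yaf2 in place of a Cbx subunit. In mouse ES cells Cbx7 is known as the main Cbx protein of canonical PRC1, and it is known to repress other Cbx genes, Cbx2 and Cbx8 among them.

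Signals were the authors' MAS5 intensities, brought to a common mean on the 4 arrays and floored at 36.6, below which a value was treated as not measured. Log2 differences are each knockout-labelled array minus the control of its pair, and 2-fold is 1 on this scale. A fold with 1 of its arrays at the floor can only be bounded and is written "at least". Probe sets differ in how well they bind their target, so differences between arrays, and not levels, were compared between genes.

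The labels could not be checked from the targeted genes. Ring1 had a signal of 164 on the Ring1B KO-labelled array and 146 on its control, and 55.6 on the double KO-labelled array and 44.7 on its control. Rnf2, at its brightest probe set, had 2775 on the Ring1B KO-labelled array and 2580 on its control, and 1986 on the double KO-labelled array and 2182 on its control. At these probe sets neither gene was 2-fold lower on an array labelled knockout than on its control, and whether these probe sets lie in the deleted parts is not known here. Ring1 was lower by 3.27-fold on the control of the double KO than on that of the Ring1B KO. The arrays are therefore called by their labels, and every sign below rests on those labels. All 10 ES cell marker genes, among them Pou5f1, Nanog and Sox2, were above the floor on all 4 arrays.

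Markers of other cell types also differed between the arrays of each pair. Of 12 primitive endoderm markers, 11 were at least 2-fold higher on the Ring1B KO-labelled array than on its control, and 8 at least 2-fold lower on the double KO-labelled array than on its control, with 1, Lama1, higher. Their summed signal was 25781 on the Ring1B KO-labelled array and 8853 on its control, and 6032 on the double KO-labelled array and 13877 on its control. On the double KO-labelled array, Gata6, Sox7, Sox17, Foxa2 and Pdgfra were at the floor, and on the Ring1B control Foxa2 was. Of 12 fibroblast or feeder markers, 0 were 2-fold apart in the Ring1B comparison, though all 11 above the floor were higher (summed signal 17193 on the Ring1B KO-labelled array and 11792 on its control) and 9 were at least 2-fold lower in the double KO comparison (2343 on the double KO-labelled array and 5235 on its control). The only markers of this list at the floor were Lum on 3 arrays and Pdgfrb on the double KO-labelled array. The 10 ES cell markers summed to 36117 on the Ring1B KO-labelled array and 44723 on its control, and to 44299 on the double KO-labelled array and 30337 on its control. In the Ring1B comparison 8 of them were lower and 2 higher, with only Dppa3 past 2-fold (5.29-fold lower). In the double KO comparison 8 were higher and 2 lower, with only Tdgf1 past 2-fold (2.04-fold higher). The part of such markers in the differences of the subunit genes was not tested, and in bulk RNA fewer cells of a type and less RNA per cell cannot be told apart.

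Of the 10 subunit genes, 2 stood at least 2-fold apart between the Ring1B KO-labelled array and its control, and 4 between the double KO-labelled array and its control. In the Ring1B comparison Cbx8 was at least 2.02-fold higher and Phc1 was 2.01-fold lower. Both sit at the edge of the threshold. Over all genes above the floor on at least 1 array of the pair, 3.54% reached 2-fold in the higher direction and 2.61% in the lower. In the double KO comparison Phc1 was 3.61-fold higher, while Phc2, Cbx2 and Yaf2 were 3.27-, 2.31- and 2.22-fold lower. The shares over all genes in that comparison were 3.02% higher and 9.99% lower by at least 2-fold. The median log2 difference of the 10 genes was 0.22 in the Ring1B comparison and 0.05 in the double KO comparison, against −0.02 and −0.05 over all genes. The median size of their differences, signs left aside, was 0.54 and 0.56, against 0.26 and 0.33 over all genes. Dim genes stood 2-fold apart more often than bright ones: in the double KO comparison 19.3% of genes with a mean signal up to 100 did so, 13.9% of those between 100 and 1000, and 3.54% of those above 1000.

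**Figure D1:**
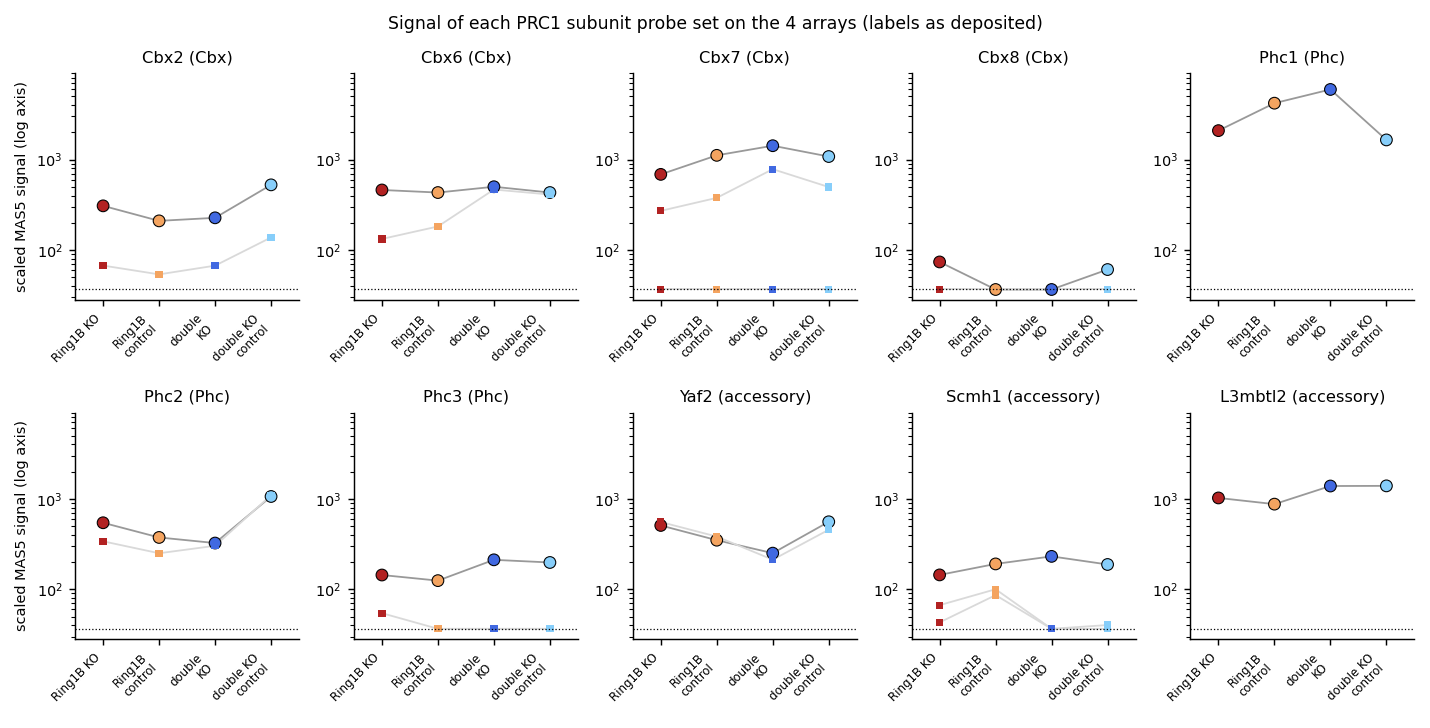
Scaled MAS5 signal on a log axis for every probe set of the 10 genes on the 4 arrays, each named by its deposited label. Large circles are the brightest probe set of a gene and small squares its others, lines join the values of 1 probe set and stand for no order in time, and the dotted line is the floor of 36.6, at which lower values are drawn. Phc1 peaks on the double KO-labelled array at 5955, while Cbx2 and Phc2 peak on the double KO control array at 525 and 1062.

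The 250 bases before the start are shown for the paralogs that differed in opposite directions, with each CpG dinucleotide in capitals, since CpG-rich promoters are where Polycomb complexes are commonly found. Sequences are from RefSeq on build GRCm38.p6, which had 11 starts for 8 of the 10 genes and none for Cbx2 and Yaf2. They are written in the direction of transcription and lie at chr6:122340228-122340477 (− strand) for Phc1, chr4:128654452-128654701 (+ strand) and chr4:128727321-128727570 (+ strand) for 2 of the 3 starts of Phc2, chr15:79932647-79932896 (− strand) for Cbx7 and chr11:119040914-119041163 (− strand) for Cbx8.
Phc1: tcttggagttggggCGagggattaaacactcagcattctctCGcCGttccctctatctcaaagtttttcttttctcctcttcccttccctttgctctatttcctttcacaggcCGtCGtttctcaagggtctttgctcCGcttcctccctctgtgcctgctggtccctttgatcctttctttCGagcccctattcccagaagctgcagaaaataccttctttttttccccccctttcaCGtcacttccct
Phc2, first start: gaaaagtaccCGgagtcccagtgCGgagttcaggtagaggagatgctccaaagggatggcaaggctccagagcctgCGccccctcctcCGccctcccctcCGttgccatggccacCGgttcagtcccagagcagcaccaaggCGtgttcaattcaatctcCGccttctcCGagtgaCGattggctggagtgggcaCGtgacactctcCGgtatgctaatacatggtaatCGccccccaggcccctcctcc
Phc2, last start: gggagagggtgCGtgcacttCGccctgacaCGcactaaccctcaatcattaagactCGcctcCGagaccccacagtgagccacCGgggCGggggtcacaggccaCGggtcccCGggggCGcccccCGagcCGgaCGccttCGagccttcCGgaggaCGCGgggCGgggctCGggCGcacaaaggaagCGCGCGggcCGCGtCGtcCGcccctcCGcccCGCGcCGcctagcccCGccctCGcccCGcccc
Cbx7: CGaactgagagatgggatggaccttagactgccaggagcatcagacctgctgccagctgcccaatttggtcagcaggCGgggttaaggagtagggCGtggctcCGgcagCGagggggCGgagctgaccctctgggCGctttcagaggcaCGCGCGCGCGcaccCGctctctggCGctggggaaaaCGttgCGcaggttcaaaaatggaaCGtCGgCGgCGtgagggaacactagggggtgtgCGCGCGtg
Cbx8: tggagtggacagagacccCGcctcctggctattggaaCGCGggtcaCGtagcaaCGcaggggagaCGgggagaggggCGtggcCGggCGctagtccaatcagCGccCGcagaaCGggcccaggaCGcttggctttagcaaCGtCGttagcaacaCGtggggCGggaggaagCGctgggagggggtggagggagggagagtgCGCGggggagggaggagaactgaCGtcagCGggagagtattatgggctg

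The Phc1 stretch holds 8 CpG dinucleotides, the first and last Phc2 stretches 13 and 34, the Cbx7 stretch 23 and the Cbx8 stretch 22, against a median of 6 over 32851 promoters of the same length. The second Phc2 start, not printed, has 1 CpG, fewer than Phc1, and 92.1% of all promoters have as many. As many as in the Phc1 stretch were found in 43.0% of all promoters, and as many as in the Cbx7 and Cbx8 stretches in 13.3% and 14.8%. The E-box CACGTG, which reads alike on both strands and is the kind of site bound by the Max and Mga proteins of variant PRC1, occurred in 4 of the 11 member stretches (Phc2 first start, Phc3, Cbx6 and Cbx8), and in 6.02% of all promoters. The octamer ATGCAAAT, the kind of site bound by Oct4, was searched on both strands and occurred in 1 of the 11, the second start of Phc2, and in 1.60% of all promoters. Such matches are letters in a window and say nothing of binding.

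Among the Phc genes, which encode the polyhomeotic subunits, Phc1 and Phc2 differed in opposite directions in both comparisons and Phc3 was under 2-fold apart in both. Phc1 is measured by 1 probe set (1423212_at), with a signal of 2088 on the Ring1B KO-labelled array and 4199 on its control, and of 5955 on the double KO-labelled array and 1648 on its control. Phc1 signal was thus high on the Ring1B control array and the double KO-labelled array and low on the other 2 arrays. The log2 differences were −1.01 and 1.85. Over all genes, 6.0% differed by as much in the Ring1B comparison and 2.76% in the double KO comparison. Of genes with a mean signal above 1000, as Phc1 has, 1.86% were at least 2-fold apart in the Ring1B comparison.

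Phc2 has a pair of probe sets above the floor on all 4 arrays. The brighter (1437239_x_at) read 544 on the Ring1B KO-labelled array and 374 on its control, and 325 on the double KO-labelled array and 1062 on its control. The other (1416048_at) read 339 on the Ring1B KO-labelled array and 250 on its control, and 303 on the double KO-labelled array and 1097 on its control. Both give Phc2 a higher signal on the Ring1B KO-labelled array (log2 differences of 0.54 and 0.44) and a lower one on the double KO-labelled array (−1.71 and −1.86). The double KO control array stands out as the high one at both probe sets.

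Phc3 read 144 on the Ring1B KO-labelled array and 125 on its control, and 212 on the double KO-labelled array and 198 on its control, at its brighter probe set (1455312_at). Its differences of 0.21 and 0.10 are close to or under the size by which different probe sets of 1 gene disagree, for which the medians over all genes were 0.19 in the Ring1B comparison and 0.22 in the double KO comparison. The second Phc3 probe set (1443651_at) was above the floor on the Ring1B KO-labelled array alone, at 54.5.

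Set side by side, the paralogs Phc2 and Phc1 differed in opposite directions within each pair of arrays. The Phc2 difference minus the Phc1 difference was 1.55 in the Ring1B comparison and −3.56 in the double KO comparison. The ratio of Phc2 to Phc1 signal was thus 2.92-fold higher on the Ring1B KO-labelled array than on its control, and 11.8-fold lower on the double KO-labelled array than on its control. Multiplying an array by a factor does not alter such a ratio. Between Phc2 and Phc3 the corresponding values were 0.33 and −1.81, and between Phc3 and Phc1 1.21 and −1.76.

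Among the Cbx genes, which encode the chromodomain subunits, Cbx2 and Cbx8 took 1 side and Cbx7 the other. Cbx7 at its brightest probe set (1433557_at) read 686 on the Ring1B KO-labelled array and 1113 on its control, and 1422 on the double KO-labelled array and 1080 on its control. A second probe set (1420039_s_at) read 271 on the Ring1B KO-labelled array and 377 on its control, and 783 on the double KO-labelled array and 497 on its control. Cbx7 was thus lower on the Ring1B KO-labelled array (−0.70 and −0.48) and higher on the double KO-labelled array (0.40 and 0.66), and no difference reached 2-fold. The remaining probe set (1449713_at) did not exceed the floor on any of the 4 arrays.

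Cbx2 read 308 on the Ring1B KO-labelled array and 210 on its control, and 227 on the double KO-labelled array and 525 on its control (1434116_at). The dimmer probe set (1422059_at) had 67.3 on the Ring1B KO-labelled array and 53.8 on its control, and 67.1 on the double KO-labelled array and 138 on its control. The 2 probe sets gave differences of 0.55 and 0.32 in the Ring1B comparison and −1.21 and −1.04 in the double KO comparison, so Cbx2 was at least 2-fold lower on the double KO-labelled array at both. As with Phc2, the double KO control was the array with the high value.

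Cbx8 was a dim gene throughout, and its differences are bounds. Its brighter probe set (1419198_at) read 73.8 on the Ring1B KO-labelled array against a signal under the floor on its control, and lay under the floor on the double KO-labelled array against 60.8 on its control. The signal was at least 2.02-fold higher on the Ring1B KO-labelled array and at least 1.66-fold lower on the double KO-labelled array. Its other probe set (1419199_at) never exceeded the floor, and 10.2% of genes with a mean signal up to 100 were 2-fold apart in the Ring1B comparison.

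Cbx6 was under 2-fold apart in both comparisons, and its probe sets gave opposite signs in the Ring1B comparison. The brighter (1424407_s_at) read 461 on the Ring1B KO-labelled array and 432 on its control, and 500.3 on the double KO-labelled array and 432 on its control. The other (1429290_at) read 132 on the Ring1B KO-labelled array and 182 on its control, and 466 on the double KO-labelled array and 410 on its control. The differences were 0.09 and −0.46 in the Ring1B comparison, and 0.21 and 0.18 in the double KO comparison. No direction is given for Cbx6 in the Ring1B comparison.

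The Cbx2 difference minus the Cbx7 difference was 1.25 in the Ring1B comparison and −1.61 in the double KO comparison. The ratio of Cbx2 to Cbx7 signal was 2.38-fold higher on the Ring1B KO-labelled array than on its control, and 3.05-fold lower on the double KO-labelled array than on its control. For Cbx6 against Cbx7 the values were 0.79 and −0.18. Cbx2 and Cbx8 are next to each other on chromosome 11, with 0 protein-coding genes between them, and differed in the same direction in both comparisons. Cbx6 and Cbx7 lie on chromosome 15 with 1 protein-coding gene, Apobec3, between them. Phc1 lies on chromosome 6, with 6 protein-coding genes between it and the pluripotency gene Nanog, whose log2 differences were −0.13 and 0.27.

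**Figure D2:**
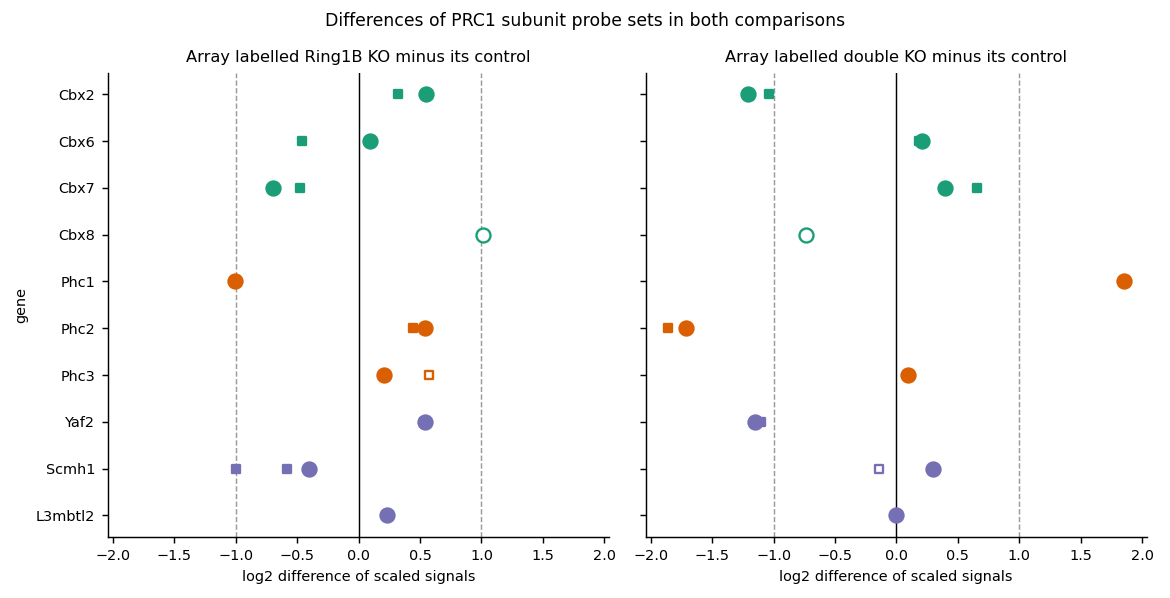
Log2 difference of scaled signals for every probe set above the floor on at least 1 array of the pair, for the Ring1B KO-labelled array minus its control (left) and the double KO-labelled array minus its control (right). Large circles are the brightest probe set of a gene, small squares its others, open symbols are bounds with 1 array at the floor, and dashed lines mark 2-fold; Phc1 lies at −1.01 on the left and 1.85 on the right, and Phc2 at 0.54 and −1.71.

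Of the accessory subunits, Yaf2, a relative of Rybp that occupies the Rybp position in variant PRC1, went the way of Phc2 and Cbx2. Its brighter probe set (1429839_a_at) read 508 on the Ring1B KO-labelled array and 349 on its control, and 251 on the double KO-labelled array and 558 on its control. The other (1423399_a_at) read 555 on the Ring1B KO-labelled array and 383 on its control, and 212 on the double KO-labelled array and 455 on its control. The differences of 0.54 and 0.54 in the Ring1B comparison and −1.15 and −1.10 in the double KO comparison were nearly alike at both probe sets, and both double KO values exceed 2-fold. The probe sets of Rybp itself carry a second symbol, Rybp-ps, and were not named.

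Scmh1, which carries MBT repeats and a SAM domain, read 144 on the Ring1B KO-labelled array and 191 on its control at its brightest probe set (1426241_a_at), and 231 on the double KO-labelled array and 188 on its control. Its other probe sets had 66.8 on the Ring1B KO-labelled array and 100.1 on its control (1441573_at), and 43.1 on the Ring1B KO-labelled array and 86.2 on its control (1439554_at). All 3 therefore put Scmh1 lower on the Ring1B KO-labelled array than on its own control, at −0.40, −0.58 and −1.0. Against the double KO control the values were −0.38, 0.73 and 0.24, the last a bound, so the dimmer probe sets turned. In the double KO comparison the brightest gave 0.30, 1441573_at gave −0.14 as a bound, and the remaining one was at the floor on both arrays, so no direction is given.

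L3mbtl2, an MBT-repeat protein of the variant PRC1 that contains Pcgf6 and E2f6, was nearly level between the arrays of each pair. It read 1023 on the Ring1B KO-labelled array and 874 on its control, and 1386 on the double KO-labelled array and 1391 on its control (1433777_at). The log2 differences were 0.23 and −0.01. It was higher on both arrays of the double KO pair than on both arrays of the Ring1B pair, as Phc3 was at its brighter probe set only. The log2 patterns of L3mbtl2 and Phc3 over the 4 arrays were the closest of any 2 of the 9 subunit genes above the floor on all arrays, at a Euclidean distance of 0.0942. Both had small log2 ranges over the arrays, 0.67 for L3mbtl2 and 0.76 for Phc3, and small ranges leave little room for distance.

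Of the 10 genes, 8 differed in opposite directions in the 2 comparisons, which have no array in common. Over 11615 genes above the floor on at least 1 array of each pair, 62.0% did so. The exceptions were Cbx6 and Phc3, higher in both, and L3mbtl2 counts as opposite with a difference of −0.01. The signs of Phc3, Scmh1 and L3mbtl2 in the double KO comparison and of Cbx6 in the Ring1B comparison turned under other scalings or probe set choices. With at least 1.5-fold asked in both comparisons, Phc1 and Cbx8 were opposite and 0 of the 10 genes went the same way, while 8.38% of all genes were opposite (973) and 156 genes went the same way. Cbx2, Phc2 and Yaf2 were under 1.5-fold in the Ring1B comparison, at 1.47-, 1.45- and 1.45-fold. The opposite signs of these subunit genes are thus a pattern that many other genes on these arrays also show.

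**Figure D3:**
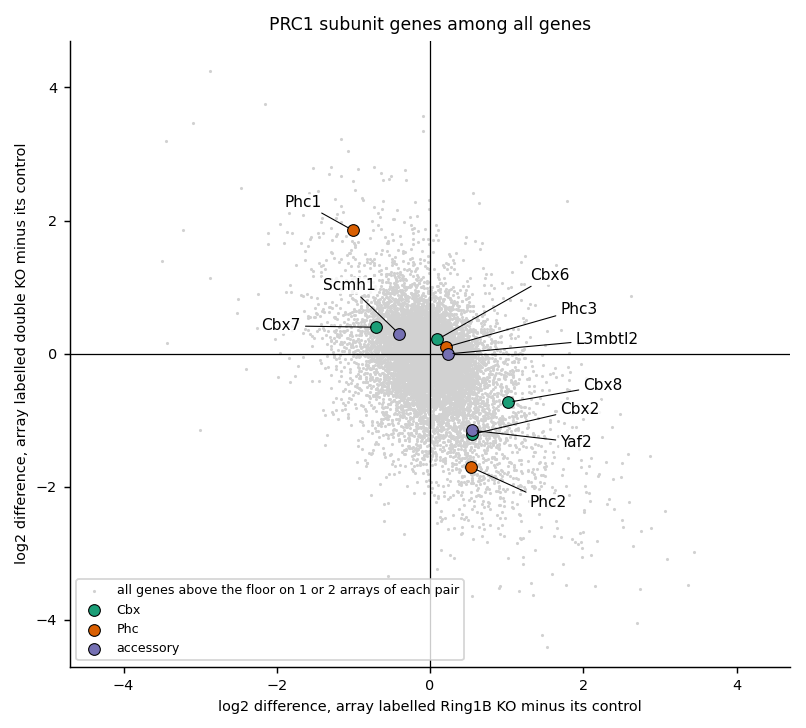
Log2 difference in the Ring1B comparison (horizontal axis) against that in the double KO comparison (vertical axis), arrays named by their labels, for 11615 genes (grey points) and the 10 PRC1 subunit genes (coloured by family). At their brightest probe sets Phc1, Cbx7 and Scmh1 lie at the upper left, Cbx2, Cbx8, Phc2 and Yaf2 at the lower right, and Cbx6, Phc3 and L3mbtl2 near the centre.

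The 2 control arrays, both labelled wild-type, themselves differed in these genes. The double KO control array minus the Ring1B control gave 1.5 for Phc2, 1.32 for Cbx2 and −1.35 for Phc1, and these 3 of 10 genes were at least 2-fold apart, 2 higher and 1 lower. Among all genes 12.2% stood higher and 8.15% lower by at least 2-fold. This comparison shares an array with each of the other comparisons. The Ring1B KO-labelled array against the double KO control had 0 of 10 subunit genes at least 2-fold apart at their brightest probe sets, where 19.1% of all genes were. Dimmer probe sets did pass 2-fold there, with Cbx2 (1422059_at) 2.05-fold, Cbx6 (1429290_at) 3.10-fold and Phc2 (1416048_at) 3.23-fold lower on the Ring1B KO-labelled array. The double KO-labelled array against the Ring1B control also had 0 of 10 at the brightest probe sets, where 17.7% of all genes were. Here too dimmer probe sets passed 2-fold, with Cbx6 (1429290_at) 2.56-fold and Cbx7 (1420039_s_at) 2.08-fold higher on the double KO-labelled array, and Scmh1 at least 2.74-fold (1441573_at) and at least 2.36-fold (1439554_at) lower. Against these other controls Phc1 was 1.27-fold higher on the Ring1B KO-labelled array and 1.42-fold higher on the double KO-labelled array. Phc2 was 1.95-fold lower on the Ring1B KO-labelled array and 1.15-fold lower on the double KO-labelled array. The other Phc2 probe set, 1416048_at, was 1.21-fold higher on the double KO-labelled array. At their brightest probe sets, Phc1 (0.34), Phc2 (−0.96) and Cbx2 (−0.77) on the Ring1B KO-labelled array had opposite signs against the double KO control and its own control. So did Phc3 (−0.46), L3mbtl2 (−0.44) and Yaf2 (−0.13). The other probe sets of Yaf2 (1423399_a_at, 0.28) and Phc3 (1443651_at, 0.57 as a bound) did not turn. Scmh1 turned at its dimmer probe sets, 1441573_at (0.73) and 1439554_at (0.24 as a bound), and not at its brightest (−0.38). On the double KO-labelled array the signs of Cbx2 (0.11) and L3mbtl2 (0.67) at their brightest probe sets turned against the Ring1B control. Cbx8 was at the floor on both of those arrays. The sizes of many of these differences, and the signs of those that turned, therefore rest on which control is used. Cbx7 kept its signs on the Ring1B KO-labelled and double KO-labelled arrays with the controls exchanged. The values were −0.66 and 0.35 at 1433557_at, and −0.88 and 1.05 at 1420039_s_at. At their brightest probe sets Cbx6 (0.09 and 0.21) and Scmh1 (−0.38 and 0.28) also stayed close to their values with the own control. The pairs were deposited on different scales and were brought to a common mean here. The cause of the differences that remained between the pairs was not tested.

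At the brightest probe set of each gene, the median size of the differences over the 10 genes was smallest between the double KO-labelled array and the Ring1B control (0.32). Cbx8, at the floor on both of these arrays, entered that median as 0. The next smallest median was between the Ring1B KO-labelled array and the double KO control (0.41). The median was 0.71 between the arrays labelled Ring1B KO and double KO and 0.67 between the controls. Over all genes the order was another one, with the smallest medians within the deposited pairs (0.26 and 0.33) and 0.47 to 0.54 across them.

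Genes elsewhere in the Polycomb system were read beside the subunits. Of 26 other PRC1 genes, 22 were named on the array and 21 were above the floor on at least 1 array of each pair. In the Ring1B comparison 2 of the 21 were at least 2-fold higher and 0 lower, with a median of 0.03. The higher ones were Bmi1, a Pcgf RING-finger partner (3.91-fold, with 659 on the Ring1B KO-labelled array and 168 on its control), and Bcor, a subunit of the variant complex with Pcgf1 (2.40-fold). In the double KO comparison 1 was at least 2-fold higher (Fbrsl1, 2.02-fold) and 3 lower, with a median of 0.12. The lower ones were Bmi1 (3.03-fold, with 196 on the double KO-labelled array and 595 on its control), Bcor (2.34-fold) and E2f6, a transcription factor of variant PRC1 (2.18-fold). Bmi1, Bcor and E2f6 have the signs of Cbx2, Phc2 and Yaf2 in both comparisons with their own controls. These 3 genes were also 3.53-, 4.51- and 2.37-fold higher on the control of the double KO than on that of the Ring1B KO. With the controls exchanged, the log2 differences of the Ring1B KO-labelled and double KO-labelled arrays were 0.15 and 0.22 for Bmi1, −0.91 and 0.94 for Bcor, and −0.40 and 0.12 for E2f6. Mga, the DNA-binding partner of Max in variant PRC1, had the signs of Phc1 and Cbx7, at −0.57 and 0.78, and was at −0.06 and 0.27 with the controls exchanged.

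The chromodomain relatives outside PRC1, the HP1 genes Cbx1, Cbx3 and Cbx5, had 0 of 3 genes 2-fold apart in the Ring1B comparison and 0 of 2 measured genes in the double KO comparison. Cbx3 was dim, at 61.5 on the Ring1B KO-labelled array and 88.0 on its control, and at the floor on both arrays of the double KO pair. Among 8 SAM or MBT domain relatives on the array, 5 exceeded the floor in the Ring1B pair and 7 in the double KO pair. Of these, Sfmbt2, an MBT-repeat gene, was 2.18-fold higher on the Ring1B KO-labelled array than on its control and 3.36-fold lower on the double KO-labelled array than on its control. The medians of this list were 0.43 and −0.61. L3mbtl3 was 2.04-fold higher on the Ring1B KO-labelled array, and Sfmbt1 2.04-fold lower on the double KO-labelled array. With the controls exchanged, Sfmbt2 was at −0.05 and −0.58 on the log2 scale. L3mbtl3 was then at 1.77 on the Ring1B KO-labelled array, and Sfmbt1 at −0.09 on the double KO-labelled array. Of 12 PRC2 genes, 1 was at least 2-fold apart in each comparison: Epop was 2.41-fold higher on the Ring1B KO-labelled array, and Phf19 was 3.48-fold higher on the double KO-labelled array. The PRC2 medians were −0.01 and 0.03. With the controls exchanged, Epop was at 0.53 on the Ring1B KO-labelled array and Phf19 at 0.99 on the double KO-labelled array.

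**Figure D4:**
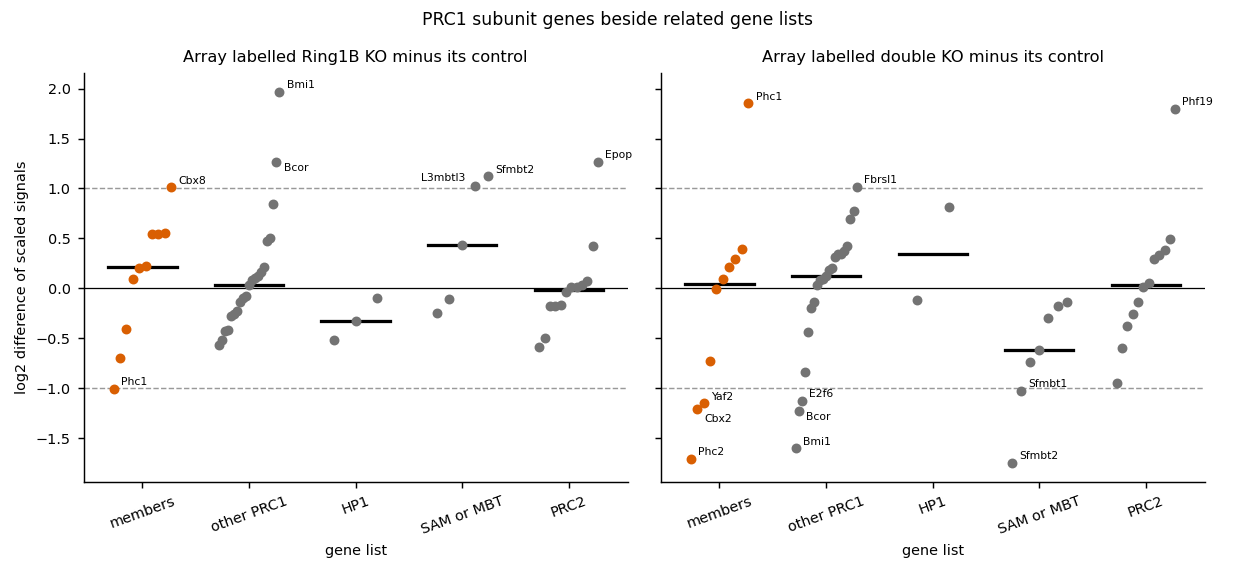
Log2 differences in the Ring1B comparison (left) and the double KO comparison (right), arrays named by their labels, for the 10 PRC1 subunit genes (orange, marked members) and for other PRC1, HP1, SAM or MBT domain and PRC2 genes above the floor on at least 1 array of the pair (grey). Bars are list medians, dashed lines mark 2-fold, and genes past 2-fold are named; Bmi1 lies at 1.97 on the left, the highest point of its list.

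Genes with the most similar pattern over the 4 arrays were looked up for the 5 subunit genes that were above the floor on all arrays with a range of at least 2-fold. Likeness was the Euclidean distance between mean-centred log2 signals among 10302 genes, a description over 4 arrays. Phc1 had 31 genes within a distance of 0.5, and the nearest were Nnat (0.21), Prune2 (0.21) and 4930432K21Rik (0.26). Phc2 had 142 genes within that distance, led by Hdgfl3 (0.0804), B4galnt2 (0.11) and Zfp711 (0.12). Cbx2 had 331, led by Galnt10, Phykpl and Plcl2, and Yaf2 had 397, led by Zar1, Selenon and Pls1. Cbx7 had 1158, led by Wdr31, Serac1 and Nhlrc3. These counts fell as the log2 range of the gene over the arrays rose, from Cbx7 (1.05) to Phc1 (1.85). A low count therefore does not by itself mark an unusual pattern. Cbx2 and Phc2 were 0.36 from each other.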

How the data were processed

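Transcripts were measured in total RNA of mouse ES cells with 1 Affymetrix array for each of 4 labelled groups. The values are signal intensity on a linear scale, computed with MAS5 per the submitters' processing notes, with no version or settings given, and used as deposited. The 2%-trimmed mean was 500.0 on both arrays of the Ring1B pair, 147 on the array labelled double KO and 160 on its control, so the Ring1B pair was multiplied by 0.554, the array labelled double KO by 1.89 and its control by 1.73, to a common 277. Signals were floored at 36.6, the 40th percentile of scaled signals of probe sets with 1 gene symbol. The floor shrinks the differences of dim genes. Gene symbols came from the platform annotation, and 34958 probe sets had 1 symbol, 932 had several and 9211 had none here. For each gene the probe set with the highest mean log2 signal was used. Entrez identifiers matched the RefSeq table for all 10 subunit genes.

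With 1 array per group, values were compared as log2 differences and counts at 2-fold, with no test. The steps were run on simulated arrays, with changes put only into genes well above the floor and only in the double KO comparison. That run does not cover dim genes such as Cbx8. The 10 genes, the lists and the comparisons were chosen with earlier results of these data known, and the ratios of Phc2 to Phc1 and of Cbx2 to Cbx7 after their values were seen. Named genes were all probe sets of the 10 genes, Ring1 and Rnf2, up to 3 genes per direction of each related list, and the 3 genes nearest in pattern. Alternatives were other scalings, floors, probe set choices and control arrays. Python 3.11.15, numpy 2.4.6, pandas 2.3.3 and matplotlib 3.10.9 were used.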

Additional observations from a re-analysis of the deposited data

Results flagged for a closer look

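Phc1 and Cbx8 were at least 1.5-fold apart in both comparisons with opposite signs. The difference in the Ring1B comparison minus that in the double KO comparison was −2.86 for Phc1 and 1.74 for Cbx8 on the log2 scale. The Cbx8 value rests on bounds in both comparisons, with a signal of at most 73.8 on any array. With 1 array in each group, the difference between the comparisons was not tested.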

How the results depend on the processing

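With 1 array per group, and dim genes at the floor, no spread between replicates bounds these values, and moves were read against the median disagreement between probe sets of a gene. No paired analysis was possible because each group is 1 array and the labels carry no replicate numbers. In the Ring1B comparison the count of 2 genes at 2-fold was 1 under quantile normalization, a common median, a floor at the 60th percentile and the mean over probe sets. With the other pair's control array the Ring1B count was 0, the median of the 10 genes −0.41, Phc1 0.34, Phc2 minus Phc1 −1.31 and Cbx2 minus Cbx7 −0.12. With the mean over probe sets, Cbx2 minus Cbx7 was 0.83. In the double KO comparison the other control gave a count of 0, Cbx2 0.11, Phc2 minus Phc1 −0.71 and Cbx2 minus Cbx7 −0.24. Between the control arrays the count was 5 when probe sets open to several transcripts were left out, and on values as deposited the median was −0.97, Cbx2 −0.32 and Phc2 −0.14. The deposited scale itself put the median of all genes there at −1.32, against 0.13 after scaling; a common median moved it by 0.12 in the double KO comparison, and the other control by −0.12 in the Ring1B comparison. The cause of the other moves was not tested. With the own control, Phc1, Phc2 and Cbx2 were at least 2-fold apart in the double KO comparison under all 8 settings, and Yaf2 under the 7 that gave it a value. Cbx8 in the Ring1B comparison ranged between 0 (floor at the 60th percentile) and 2.03. Cbx6 in the Ring1B comparison, and Phc3, Scmh1 and L3mbtl2 in the double KO comparison, changed sign among those settings.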
